A study of Mus musculus with 2 samples.

Results

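Tip-like cells were taken from the endothelium of the mouse adrenal gland by a gate on single-cell RNA sequencing counts, and 286 of 9927 cells passed it. The cells were selected on the measured UMIs of 8 genes (unique molecular identifiers, each standing for 1 captured transcript). The gate asked for at least 2 UMIs from at least 2 of the 6 genes Apln, Kcne3, Kcnj8, Kcnj2, Ackr3 and Gm867, and for at least 1 UMI of Plvap or Esm1. It held 153 of 3793 cells of the VEGF/LysM library and 133 of 6134 cells of the WT library. The study set VEGF/LysM mice beside wild-type mice to ask how VEGF-A from macrophages bears on the diversity of adrenal endothelial cells. Both groups were female mice at 12 weeks of age. Glands from both sides were digested with a cold-active bacterial protease, and live CD31+ CD45- cells were sorted and loaded on a 10x Genomics instrument. The labels give the genotype only as VEGF/LysM, without naming the alleles, and how many mice went into a library is not stated there. LysM names a promoter used to drive Cre recombinase in myeloid cells, a lineage that carries CD45. With 1 library in each group there is no replicate, no difference below has a test, and every interval covers counting error only.

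Tip cells lead the sprouts of growing vessels. They answer VEGF-A through its receptor Kdr, display the Notch ligand Dll4 to the cells behind them, send out filopodia and lay down new basement membrane. Apln encodes apelin, a secreted peptide of sprouting endothelium that is read by the receptor Aplnr on nearby cells. Ackr3 encodes a scavenging receptor for the chemokine Cxcl12. Kcnj8 and Kcnj2 encode pore-forming subunits of inwardly rectifying potassium channels, and Kcne3 encodes an accessory subunit of voltage-gated potassium channels. Plvap forms the diaphragms of endothelial fenestrae, and Esm1 (endocan) is a secreted proteoglycan of VEGF-stimulated endothelium. The adult adrenal gland is supplied by a dense bed of fenestrated capillaries, and tip-like here means only that a cell carried these transcripts.

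The 8 gate genes chose the cells, so their values describe the gate and are no result. Of the 6 genes, Kcnj8 was found most often, in 118 of 153 gated VEGF/LysM cells (77.1%) and 82 of 133 gated WT cells (61.7%). Apln was found in 62 gated VEGF/LysM cells (40.5%) and 69 gated WT cells (51.9%). Kcne3, Kcnj2 and Ackr3 were each found in 33.1% to 36.6% of the gated cells of a library. Gm867, a predicted gene, was found in 26.8% of gated VEGF/LysM cells and 21.1% of gated WT cells. The pair met most often was Apln with Kcnj8, in 43 gated VEGF/LysM cells (28.1%) and 34 gated WT cells (25.6%). Most cells sat close to the edge of the gate: 94 of 153 VEGF/LysM cells and 95 of 133 WT cells had exactly 2 of the 6 genes, and only 2 VEGF/LysM cells and no WT cell had all 6. Just outside it, 370 VEGF/LysM and 507 WT cells with Plvap or Esm1 had 1 of the 6 genes. A further 11 VEGF/LysM and 9 WT cells met the 6-gene part but had neither Plvap nor Esm1.

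Levels are given as CPM, the UMIs of a gene per 1000000 UMIs summed over the cells of a group. Apln stood at 212 CPM in gated VEGF/LysM cells and 353 in gated WT cells, while Esm1 stood at 2424 in gated VEGF/LysM cells and 1652 in gated WT cells. The gated cells held 57.7% of all Apln UMIs of the VEGF/LysM library and 40.6% of those of the WT library. For Kcnj8 the shares were 46.4% in VEGF/LysM and 24.7% in WT, and the rest lay in cells outside the gate. Esm1 was much broader, with 16.1% of its UMIs in gated VEGF/LysM cells and 7.01% in gated WT cells. In the genome build GRCm38, Apln lies on chromosome X (48025146 to 48034853, minus strand), Kcne3 on chromosome 7 (100176502 to 100184869, plus strand), Kcnj8 on chromosome 6 (142564837 to 142571614, minus strand), Kcnj2 on chromosome 11 (111066164 to 111076821, plus strand) and Ackr3 on chromosome 1 (90203980 to 90216751, plus strand). Gm867 on chromosome 10 (75937723 to 75940672, minus strand) overlaps Chchd10 on the other strand.

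The share of gated cells followed the depth of the cells. Unthinned, it was 4.03% in VEGF/LysM (exact binomial 95% interval 3.43% to 4.71%) and 2.17% in WT (1.82% to 2.56%), but the median VEGF/LysM cell held 2343 UMIs and the median WT cell 1189.5. After UMIs were drawn at random down to 1000 for every cell, and 290 VEGF/LysM and 2141 WT cells below that depth were left out, 39 of 3503 VEGF/LysM cells passed the gate (1.11%, 0.793% to 1.52%) and 52 of 3993 WT cells (1.30%, 0.974% to 1.70%). Thinned to 2000 UMIs, the shares were 3.52% in VEGF/LysM (82 of 2327) and 3.78% in WT (33 of 874). Over 10 random draws at 1000 UMIs the VEGF/LysM share ran between 1.03% and 1.68% and the WT share between 1.23% and 1.40%, and the difference lay between -0.35 and 0.43 percentage points. No difference in share was therefore detectable at equal depth.

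**Figure D1:**
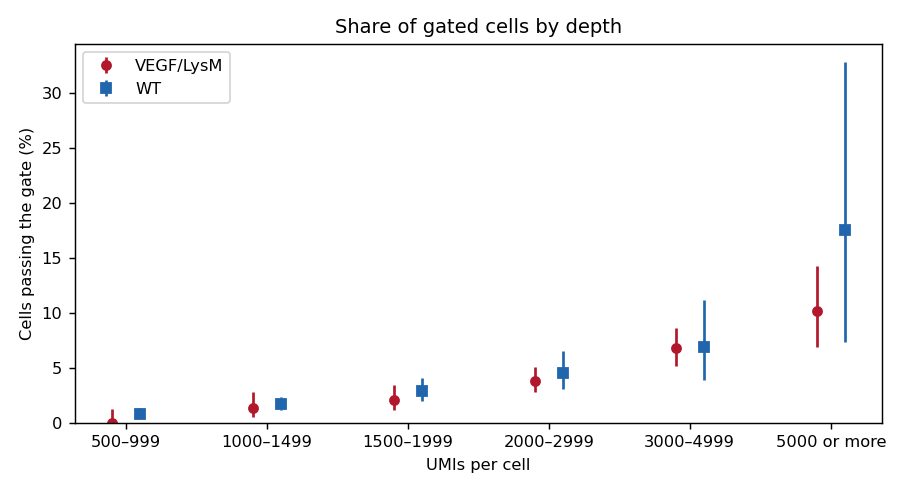
Percentage of cells passing the gate (vertical axis) in bins of UMIs per cell (horizontal axis), VEGF/LysM as circles and WT as squares, with exact binomial 95% intervals for counting error. In both libraries the share climbs with depth, to 10.1% of VEGF/LysM cells and 17.5% of WT cells at 5000 UMIs or more, and the intervals of the libraries overlap in every bin.

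Gated cells were deeper than the rest of their library, with a median of 3271 UMIs against 2313 in the other VEGF/LysM cells, and 1753 against 1181 in the other WT cells. The same 6 genes were counted in sets of cells picked by markers. All sets but the capillary one include gated cells, so they are no background from outside the gate. Of VEGF/LysM cells with at least 3 capillary markers and no Plvap or Esm1, 1.17% met the 6-gene part (10 of 855, median 1761 UMIs), and of such WT cells 0.304% did (3 of 987, median 975 UMIs). Of VEGF/LysM cells with Plvap or Esm1, 5.88% met it (median 2557.5 UMIs), and of such WT cells 3.10% did (median 1276 UMIs). Of VEGF/LysM cells with at least 3 arterial markers, taken with or without Plvap or Esm1, 7.53% met it (70 of 930, 5.91% to 9.41%, median 2763 UMIs). Of such WT cells 3.28% did (23 of 702, 2.09% to 4.88%, median 1448 UMIs). These intervals overlapped those of the shallower cells with Plvap or Esm1, 5.00% to 6.85% in VEGF/LysM and 2.60% to 3.67% in WT. For cells with at least 3 venous markers the shares were 4.74% in VEGF/LysM (43 of 908, median 3225.5 UMIs) and 2.80% in WT (26 of 927, median 1668 UMIs). Of the 70 arterial cells that met it in VEGF/LysM 65 were gated cells, as were all 23 in WT. Of the 43 venous cells in VEGF/LysM 39 were gated cells, as were all 26 in WT. Cells with at least 3 myeloid markers met it in 5 of 84 cases in VEGF/LysM and 3 of 68 in WT, at medians of 4356 UMIs in VEGF/LysM and 2891.5 in WT. These shares (5.95% and 4.41%) were not below those of cells with Plvap or Esm1, and rest on few, deeper cells. All 5 in VEGF/LysM and all 3 in WT were gated cells. Scrublet, a doublet caller, placed 4.58% of gated VEGF/LysM cells and 9.02% of gated WT cells among the highest doublet scores, against 2.99% of the other VEGF/LysM cells and 5.05% of the other WT cells. Of 10 barcodes present in both libraries, 0 were gated cells.

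Against a list of 26 tip-cell genes outside the gate, the name held in part. This list, like the others below, was chosen with earlier results of these data known, so it is no independent check of the name. All 286 gated cells had UMIs of at least 3 of the 26 genes. So did 93.6% of the other VEGF/LysM cells and 89.8% of the other WT cells. At least 3 of 10 general endothelial markers were found in all gated cells, in 97.8% of the other VEGF/LysM cells and in 98.7% of the other WT cells. Summed over the list, gated VEGF/LysM cells had 11917 CPM (11643 to 12195), against 7232 in the other VEGF/LysM cells, and gated WT cells had 12493 (12089 to 12908), against 7897 in the other WT cells. Of the 15 list members with at least 30 UMIs expected in the gated cells of each library, 8 were at least 1.5-fold higher in gated cells of both libraries and 0 were lower. Their median log2 ratio was 0.62 in VEGF/LysM and 0.65 in WT, where the median over all 2144 measured genes was -0.000585 in VEGF/LysM and -0.01 in WT. Over those 2144 genes, 2.61% (56 genes) were at least 1.5-fold higher in both libraries and 3.54% (76 genes) were lower. Within 1 library, 4.9% were higher and 6.9% lower in VEGF/LysM, and 4.1% higher and 5.83% lower in WT. Angpt2, the angiopoietin most often used to mark tip cells, had only 9 UMIs in gated VEGF/LysM cells and 5 in gated WT cells (14.9 CPM, against 11.2 in the other VEGF/LysM cells, and 17.3 against 11.9 in the other WT cells). Pgf, a VEGF-family ligand, had 0 UMIs in gated VEGF/LysM cells, where 3 counts would be 4.97 CPM, and 1 UMI in gated WT cells.

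The members with higher levels included matrix, guidance and filopodial genes. Dll4, the Notch ligand, had 364 CPM in the gated VEGF/LysM cells (95% interval 318 to 416), against 168 in the other cells, and 339 in the gated WT cells (275 to 414), against 188. The log2 ratio of gated to other cells was 1.11 (0.90 to 1.32) in VEGF/LysM and 0.85 (0.54 to 1.15) in WT. Fscn1, which bundles actin in filopodia, had 465 CPM against 204 in VEGF/LysM, and 419 against 263 in WT. Mcam, the endothelial adhesion molecule CD146, had 366 against 129.8 in VEGF/LysM, and 325 against 162 in WT. The intervals of gated and other cells did not overlap for these genes in either library. Unc5b, a netrin receptor of tip cells, was below the count filter, which goes by the level over all cells of a library. It had 219 CPM in the gated VEGF/LysM cells (95% interval 183 to 259), against 81.8 in the other cells, and 294 in the gated WT cells (235 to 364), against 95.4. Adm, encoding the vasodilator adrenomedullin, was carried by few cells, with 51.3 CPM in 19 gated VEGF/LysM cells, against 13.8 in the other cells, and 24.2 in 7 gated WT cells, against 18.5.

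The summed tip-cell list climbed with the number of gate genes found in a cell. Among cells with Plvap or Esm1, it went through 7338, 8329, 11102, 12927 and 13307 CPM in VEGF/LysM cells with 0, 1, 2, 3 and 4 or more of the 6 genes. In WT the same steps were 7982, 9703, 12212, 12936 and 13619. The last step rests on 14 VEGF/LysM and 10 WT cells, and its interval overlaps that of the step before it in both libraries. Median depth also climbed over the first steps, from 2466 UMIs with 0 genes to 3070.5 with 2 genes in VEGF/LysM and from 1249 to 1753 in WT, and its part in the trend was not tested. The climb was not particular to the tip-cell list: the capillary list stood at 5700.3, 7384, 9290.2, 8161 and 8245 CPM over the same steps in VEGF/LysM and at 4271, 5359.8, 6981, 6029 and 6427 in WT, highest at 2 genes in both libraries. The venous list was lower in cells with 2 genes than in cells with 0 in both libraries (942 against 1388 in VEGF/LysM, and 1064 against 1474 in WT), while the arterial list showed no common order.

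**Figure D2:**
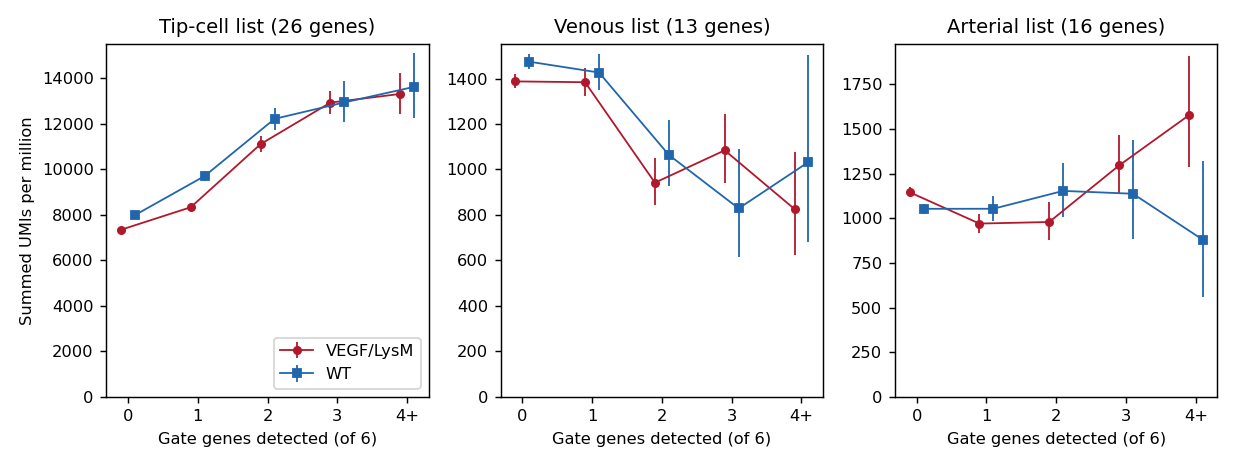
Summed CPM of the tip-cell, venous and arterial gene lists (vertical axes, from 0) in cells with Plvap or Esm1, by how many of the 6 gate genes were detected (horizontal axis), VEGF/LysM as circles and WT as squares, with exact Poisson 95% intervals. The tip-cell list stands at 7338 in VEGF/LysM and 7982 in WT cells with no gate gene, and at 13307 in VEGF/LysM and 13619 in WT cells with 4 or more.

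When all cells were clustered without the 8 gate genes, about as many gated cells fell in 1 cluster as in all others. Cluster 5, with Mdga2, Odc1, Msmp, Vash1, Chchd10, Kit, Ift122, Igf1 and Hapln1 among its leading genes, held 74 of the 153 gated VEGF/LysM cells (48.4%) and 77 of the 133 gated WT cells (57.9%), against 5.72% of all VEGF/LysM cells and 6.26% of all WT cells. Within it 34.1% of VEGF/LysM cells and 20.1% of WT cells were gated. Cluster 9, whose leading genes include Gzmk, Npr3, Uchl1 and Cyp26b1, held 31 gated VEGF/LysM cells (20.3%) and 14 gated WT cells (10.5%). Cluster 13, with Lgr5, Tspan8 and Npnt among its leading genes, held 0 gated cells in both libraries. Cluster 8, with Il1b, Clec4a3 and Fcgr1 among its leading genes, held 8 gated VEGF/LysM and 3 gated WT cells. One leading gene of cluster 5, Chchd10, overlaps Gm867 on the other strand, and 1 of cluster 9, Gzmk, overlaps Esm1. Whether reads of one gene of such a pair were counted for the other was not tested.

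**Figure D3:**
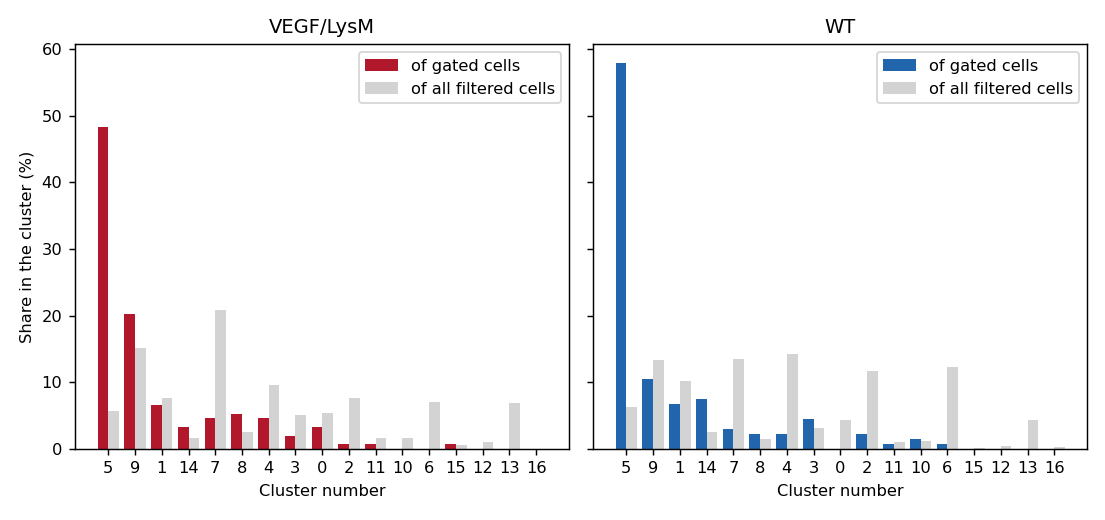
Percentage of gated cells (coloured bars) and of all filtered cells (grey bars) in each of 17 clusters made without the gate genes, VEGF/LysM on the left and WT on the right, with clusters ordered by their number of gated cells. Cluster 5 holds 48.4% of gated VEGF/LysM and 57.9% of gated WT cells but 5.72% and 6.26% of all cells.

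The gated cells of cluster 5 had the most tip-list transcripts, 14409.5 CPM in VEGF/LysM and 15714 in WT. Gated cells of cluster 9 followed with 12799.9 in VEGF/LysM and 13009 in WT, and gated cells spread over the other clusters had 9035 in VEGF/LysM and 9561 in WT. Cells of cluster 5 that the gate missed, with a median of 2369 UMIs in VEGF/LysM and 1063 in WT, still had 11007 in VEGF/LysM and 12078 in WT. Their summed 6-gene level was 229 in VEGF/LysM and 413 in WT, against 62.7 and 97.8 in the cells of cluster 9 that the gate missed. Those cells of cluster 9 had 9316 CPM of the tip list in VEGF/LysM and 9935 in WT. The intervals overlapped those of gated cells spread over the other clusters in both libraries. The capillary list stood at 12464 in VEGF/LysM and 8898 in WT in gated cells of the other clusters, against 6476 and 5085 in gated cells of cluster 5.

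Partner subunits of the gate's potassium channels were found in the same cells. Abcc9 encodes the sulfonylurea receptor SUR2, which joins Kcnj8 in ATP-sensitive potassium channels. It had 152 CPM in the gated VEGF/LysM cells (95% interval 123 to 187), against 37.7 in the other cells, and 156 in the gated WT cells (114 to 208), against 60.1. The log2 ratio was 2.02 (1.67 to 2.35) in VEGF/LysM and 1.37 (0.90 to 1.82) in WT. Kcnq1, a voltage-gated channel that Kcne3 can hold open, had 131 CPM in the gated VEGF/LysM cells (95% interval 104 to 163), against 63.7, and 201 in the gated WT cells (153 to 259.6), against 77.0. In cluster 5 Abcc9 had 218 (165 to 283) in gated VEGF/LysM cells, against 59.9 (37.6 to 90.7) in ungated ones. In WT cells of that cluster it had 230 (153 to 332) in gated, against 129 (94.5 to 171) in ungated cells, with overlapping intervals. For Kcnq1 the intervals of gated and ungated cells of cluster 5 overlapped in both libraries. Kcnq1 had 148 (105 to 203) in gated, against 177 (137 to 226) in ungated VEGF/LysM cells, and 279 (193 to 390.3) in gated, against 211 (166 to 263) in ungated WT cells. Kcnq1ot1 and other transcripts overlap Kcnq1, so its counts are less certain. Among the 4 channel-list genes outside the gate with enough counts, Piezo2, a stretch-activated channel, had the highest log2 ratios, 0.90 (0.74 to 1.05) in VEGF/LysM and 0.40 (0.17 to 0.62) in WT, and none was 1.5-fold higher in both libraries.

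Kcnj8 and Abcc9 are also the classic channel pair of pericytes, so mural markers were counted in the same cells. Of 10 mural markers, 7 had 0 UMIs in gated cells of each library, among them Pdgfrb, Cspg4, Notch3, Myh11, Des and Higd1b in both. Abcc9 itself gave 92 of the 97 mural UMIs in gated VEGF/LysM cells and 45 of the 51 in gated WT cells, and Rgs5 gave 3 and 5. Of 6 fibroblast markers, 0 UMIs were found in gated cells, which allows up to 4.97 CPM in VEGF/LysM and 10.4 in WT by a floor of 3 counts. Of 10 myeloid markers, gated VEGF/LysM cells had 537 CPM against 543 in the other cells, and gated WT cells 405 against 353. At least 3 of the markers were found in 5 gated VEGF/LysM cells (3.27%) and 3 gated WT cells (2.26%). Among the other cells the shares were 2.17% in VEGF/LysM and 1.08% in WT. Without cells holding 2 or more markers of a non-endothelial type, 57 genes were higher and 77 lower in gated cells of both libraries. The 2 channel genes are neighbours on the minus strand of chromosome 6, with 16247 bases and 0 protein-coding genes between them (Abcc9 at 142587862 to 142702315). Their upstream sequences, with that of Apln, are shown because these transcripts were found together; they come from RefSeq on GRCm38.p6, are read 5′ to 3′ on the minus strand and end at the base before the annotated start. Capitals mark a GC box (GGGCGG) or an RBPJ core (TGGGAA) on either strand; the ETS core (CCGGAA) was searched too. The Kcnj8 window (chr6:142571615-142571864) held none of the 3 motifs, the Abcc9 window (chr6:142702316-142702524) held 1 RBPJ core and 1 GC box, and the Apln window (chrX:48034854-48035103) held 1 GC box. Over the first 250 bases of 27025 promoters, 32.9% held a GC box, 21.5% an RBPJ core and 12.2% an ETS core. 
Kcnj8: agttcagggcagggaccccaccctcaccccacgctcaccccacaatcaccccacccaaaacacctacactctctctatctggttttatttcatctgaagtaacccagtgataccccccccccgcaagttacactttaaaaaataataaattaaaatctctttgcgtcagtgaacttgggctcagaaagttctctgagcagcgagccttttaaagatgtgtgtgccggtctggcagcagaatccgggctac
Abcc9: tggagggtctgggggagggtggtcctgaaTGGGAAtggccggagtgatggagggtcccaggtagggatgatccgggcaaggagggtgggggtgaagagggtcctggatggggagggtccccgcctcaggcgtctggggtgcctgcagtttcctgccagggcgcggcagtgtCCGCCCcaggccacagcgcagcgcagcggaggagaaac
Apln: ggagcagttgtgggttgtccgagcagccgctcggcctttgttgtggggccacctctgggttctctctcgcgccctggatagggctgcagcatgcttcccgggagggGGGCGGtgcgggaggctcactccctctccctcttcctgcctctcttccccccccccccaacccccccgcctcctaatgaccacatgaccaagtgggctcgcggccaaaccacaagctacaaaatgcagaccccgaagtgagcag

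The apelin receptor was higher in gated cells than in all other cells, but within cluster 5 the intervals of gated and ungated cells overlapped. Aplnr had 341 CPM in the gated VEGF/LysM cells (95% interval 296 to 391), against 135 in the other cells, and 319 in the gated WT cells (257 to 391), against 130.2, a log2 ratio of 1.33 (1.11 to 1.55) in VEGF/LysM and 1.29 (0.97 to 1.60) in WT. It was detected in 96 of 153 gated VEGF/LysM cells and 56 of 133 gated WT cells. In cluster 5 it had 573 (484 to 673) in gated VEGF/LysM cells, against 452 (386 to 527) in ungated ones, and 435 (326 to 569) in gated WT cells, against 473 (405 to 549) in ungated ones. Of the chemokine arm, Cxcr4, the signalling receptor for Cxcl12, was sparse at 26.5 CPM in gated VEGF/LysM cells and 41.6 in gated WT cells, and the ligand Cxcl12 had log2 ratios of -1.58 (-2.05 to -1.14) in VEGF/LysM and -0.54 (-1.11 to -0.03) in WT, from 11 gated cells in each. Receptors for VEGF stayed near the level of other cells. Kdr had 1976 CPM in gated VEGF/LysM cells against 2078 in the other cells, and 2424 in gated WT cells against 2379.8. Of the 5 VEGF-family genes measured, 0 passed 1.5-fold in either direction in either library.

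Across all measured genes, genes were named by how far their intervals stood from equality over both libraries and over both comparisons, with all other cells and with other cells holding Plvap or Esm1. The 20 highest were Arhgap18, Ptp4a3, Trp53i11, Smad1, Aplnr, Hapln1, Dapk2, Adam19, Gpihbp1, Col15a1, Gzmk, Plk2, Bcl6b, Gng2, Sox4, Ets2, Lamc1, Ephb1, Mcam and Egr1. All 20 stayed at least 1.5-fold higher in both libraries when the gated cell with most UMIs of the gene was left out of each. Other settings left 2 of them under 1.5-fold in 1 library: Sox4 stood at 0.58 in VEGF/LysM on cells thinned to 1000 UMIs, and Egr1 at 0.50 in WT against other cells with Plvap or Esm1 weighted to the depth of the gated cells. Arhgap18, a GTPase-activating protein, led with 829.7 CPM in the gated VEGF/LysM cells (95% interval 759 to 906), against 355 in the other cells, and 1077 in the gated WT cells (961 to 1203), against 332. Ptp4a3, a membrane-anchored phosphatase, had 349 against 136 in VEGF/LysM and 402 against 162 in WT. Smad1, which carries BMP signals to the nucleus, had 495 against 181 in VEGF/LysM and 461 against 192 in WT. Hapln1, a link protein that fixes hyaluronan in the matrix, had 454 against 161 in VEGF/LysM and 457 against 163 in WT; it is also a leading gene of cluster 5. Gzmk, a serine protease best known from lymphocytes, had 710.4 against 136 in VEGF/LysM and 433 against 172 in WT, and overlaps the gate gene Esm1 on the opposite strand. It is also a leading gene of cluster 9, where ungated cells had 621 (579 to 666) in VEGF/LysM and 709.5 (658 to 764) in WT. Lymphoid markers did not accompany Gzmk: gated VEGF/LysM cells had 8 UMIs of 8 such markers and gated WT cells 4.

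Basement membrane genes were among the higher ones. Of 16 measured members, 5 (Col4a1, Col15a1, Lama4, Lamc1 and Sparc) were at least 1.5-fold higher in both libraries and 1 (Col13a1) was lower, with a median log2 ratio of 0.41 in VEGF/LysM and 0.34 in WT. Col4a1, a chain of the basement membrane collagen, had 1641 CPM in the gated VEGF/LysM cells (95% interval 1540.5 to 1747), against 1065 in the other cells, and 1558 in the gated WT cells (1418 to 1709), against 1006. Col15a1 had 291 against 130.4 in VEGF/LysM and 371 against 174 in WT. Nid2, a nidogen that links collagen and laminin, was too low over all cells to enter the count but stood at 152 against 57.0 in VEGF/LysM and 180.1 against 65.5 in WT. Col13a1, a transmembrane collagen, had 21.5 against 116 in VEGF/LysM and 65.8 against 129 in WT. Among guidance genes, Plxnd1, a semaphorin receptor, and Sema6d, a membrane semaphorin, were higher in both libraries (log2 ratios 0.74 and 1.07 in VEGF/LysM, 0.68 and 0.81 in WT), 2 of 17 measured, and Sema3g was lower.

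**Figure D4:**
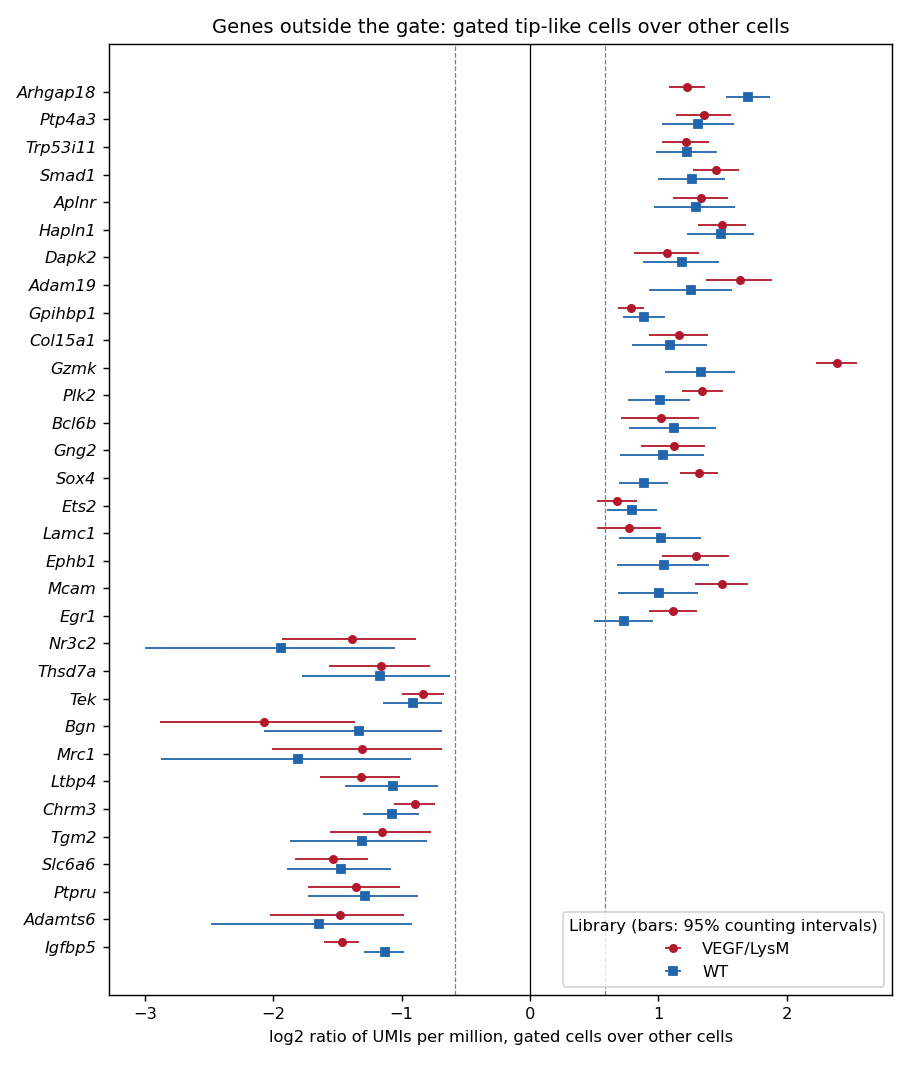
Log2 ratio of CPM in gated over other cells (horizontal axis) for the 20 genes named as higher and the 12 named as lower, VEGF/LysM as circles and WT as squares, with 95% counting intervals and dashed lines at 1.5-fold. The 20 higher genes run between 0.68 for Ets2 and 2.39 for Gzmk in VEGF/LysM, and all 12 lower genes lie left of the dashed line in both libraries.

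The 12 genes named as lower were Igfbp5, Adamts6, Ptpru, Slc6a6, Tgm2, Chrm3, Ltbp4, Mrc1, Bgn, Tek, Thsd7a and Nr3c2. Igfbp5, a secreted binding protein of insulin-like growth factors, had 758 CPM in the gated VEGF/LysM cells (95% interval 691 to 831), against 2096 in the other cells, and 1191 in the gated WT cells (1069 to 1324), against 2614. Tek, the receptor TIE2 that keeps mature vessels quiet, had 535 against 951 in VEGF/LysM and 557 against 1048 in WT. Ptprb, the phosphatase that restrains TIE2, was lower as well (964 against 1664 in VEGF/LysM and 1167 against 1823 in WT), so 2 of the 3 measured angiopoietin-pathway genes were lower in both libraries and 0 were higher. Nr3c2, the mineralocorticoid receptor, had 54.6 against 143 in VEGF/LysM and 34.6 against 133 in WT, on only 10 UMIs in the gated WT cells. Chrm3, the M3 muscarinic acetylcholine receptor, had 573 against 1068 in VEGF/LysM and 613 against 1295 in WT.

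Transcription factors split in both directions. Of 18 measured, Sox4 and Ets2 were higher in both libraries and Klf2, Klf4, Nr2f2 and Tcf15 were lower. Klf2, a factor switched on by blood flow, had 402 CPM in gated VEGF/LysM cells against 617 in the other cells, and 298 in gated WT cells against 525. Klf4, a related factor, had 157 against 313 in VEGF/LysM and 156 against 288 in WT. Nr2f2, which sets venous identity, had 250.1 against 439 in VEGF/LysM and 274 against 450.0 in WT. Within the BMP and TGF-beta list, Smad1 was the single gene of 15 higher in both libraries while Id1, Id2, Bmp6 and Ltbp4 were lower; Id1, a direct BMP target, had 318 against 498 in VEGF/LysM and 232 against 376 in WT. Of 4 measured venous genes, Aplnr was higher and 2 were lower in both libraries. Bgn, the matrix proteoglycan biglycan, had 26.5 against 112 in VEGF/LysM and 65.8 against 166 in WT. Of 9 measured capillary genes, 3 were lower in both libraries and Gpihbp1, which holds lipoprotein lipase on capillary walls, was higher (1499 against 868 in VEGF/LysM and 1129 against 609 in WT). The capillary direction differed with the cells compared and the genes measured. Against other cells with Plvap or Esm1, 5 capillary genes were measured instead of 9. Their median log2 ratio was 0.58 instead of -0.62 in VEGF/LysM, and 0.86 instead of -0.40 in WT. The medians are thus over unlike sets of genes.

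Of 7 measured genes that VEGF-A is known to raise, Dll4, Fscn1 and Igfbp3 were higher in both libraries, and all 3 are tip-list members too. The median log2 ratio of the 7 was 0.55 in VEGF/LysM and 0.46 in WT. Igfbp3, a secreted binding protein of insulin-like growth factors, had 2688 CPM in gated VEGF/LysM cells against 1515 in the other cells, and 2787 in gated WT cells against 1721. Of 30 cytoskeletal and motility genes, Fscn1, Tmsb10 (a thymosin that binds actin) and Cdc42ep3 (an effector of the GTPase Cdc42) were higher in both libraries and 0 were lower. Dll4 was the single gene of 7 in the Notch list to do so, and of 5 hypoxia and glycolysis genes 0 were higher or lower in both. Of 9 genes of fenestrae and caveolae outside the gate, 0 were higher and Cavin2, which shapes caveolae, was lower in both libraries. Of 4 retinoic acid genes, Rarb, a retinoic acid receptor, was lower (139 CPM against 242 in VEGF/LysM, and 194 against 419 in WT). The summed level of 22 proliferation markers was 558 CPM in gated VEGF/LysM cells (500.1 to 621), against 473 in the other VEGF/LysM cells, and 523 in gated WT cells (443 to 613), against 407 in the other WT cells. Only 1 of the 22 had enough counts to be measured, with log2 ratios of 0.11 in VEGF/LysM and -0.46 in WT. In gated cells 4 of the 22 had 0 UMIs in VEGF/LysM and 9 in WT, so the sum does not show more dividing cells. The gated cells were deeper, and the part of depth in shares of cells with such markers was not tested.

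Between the libraries, 94 of 2172 measured genes (4.33%) were at least 1.5-fold higher in gated VEGF/LysM cells than in gated WT cells, and 57 (2.62%) were lower. In the other cells 1.93% of the same genes were higher and 0.46% lower, on 9710021 UMIs in VEGF/LysM and 8249467 in WT. The gated cells gave only 603864 UMIs in VEGF/LysM and 288794 in WT. The gate counts raw UMIs, and the gated sets differed in depth, with medians of 3271 UMIs in VEGF/LysM and 1753 in WT. Cells with both Plvap and Esm1 made up 80.4% of gated VEGF/LysM cells and 54.1% of gated WT cells. The part of depth and make-up in these counts and ratios was not tested. Of the 94 genes, 81 leaned the same way in the other cells and 21 were past 1.5-fold there; of the 57, 44 leaned the same way and 4 were past it. Of the tip-cell list, 0 of 18 measured members were past 1.5-fold in either direction, with a median log2 ratio of -0.11, where all 2172 genes had a median of -0.02. Aplnr, Dll4 and Mcam had log2 ratios of VEGF/LysM to WT of 0.10 (-0.26 to 0.47), 0.10 (-0.25 to 0.46) and 0.17 (-0.19 to 0.53). All 3 intervals include 0, and they leave room for differences up to their bounds.

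Several of the largest ratios came from single cells. One gated VEGF/LysM cell of 11814 UMIs held 85 of the 122 H2-Eb1 UMIs, 141 of the 204 of Cd74, 186 of the 331 of Prdx1, 553 of the 1016 of Fth1 and 42 of the 48 of C1qa, a complement gene of macrophages. Another, of 17880 UMIs, held all 93 UMIs of Ly6d, 71 of 95 of Sorbs2 and 56 of 88 of Auts2. In WT, 1 gated cell of 3111 UMIs held 73 of the 99 UMIs of Hbb-bs, a haemoglobin gene. Leaving out the cell with most UMIs of the gene in each library, the ratio of Fth1, the ferritin heavy chain, was 0.00 instead of 0.96, that of Prdx1, a peroxide-removing enzyme, 0.43 instead of 1.55, and that of Hbb-bs -0.40 instead of -2.08. Of the 24 genes named in this comparison, 18 were past 1.5-fold without the top cell of the gene in each library. Ly6d then had no UMI left, Igfbp5 stood at -0.55, and Timp3 was under 1.5-fold with all cells (-0.42) and without its top cells (-0.36). In a separate count, without cells holding 2 or more markers of a non-endothelial type, 81 genes were higher and 43 lower in gated VEGF/LysM cells.

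Other genes were spread over many cells. Uchl1, a ubiquitin hydrolase best known from neurons, was found in 56 gated VEGF/LysM cells and 14 gated WT cells. It had 154 CPM in the gated VEGF/LysM cells (95% interval 124 to 189), against 51.9 in the gated WT cells (29.1 to 85.7), a log2 ratio of 1.57 (0.77 to 2.46), while in the other cells the ratio was 0.67. Among gated cells of cluster 5 it had 152 (108 to 208) in VEGF/LysM and 49.3 (18.1 to 107) in WT. Among gated cells of cluster 9, 31 in VEGF/LysM and 14 in WT, it had 323 (219.7 to 459) and 212 (77.6 to 460.4), with overlapping intervals. Psmb8, an immunoproteasome subunit, had 238 CPM in the gated VEGF/LysM cells (95% interval 201 to 281), against 97.0 in the gated WT cells (64.4 to 140.1), and was found in 82 and 23 cells. Of the 13 measured interferon and antigen-presentation genes, 7 were at least 1.5-fold higher in gated VEGF/LysM cells, 6 of 13 were in the other cells, and 5 were in gated cells without the top cell of each gene. Psmb8 and Iigp1, an interferon-induced GTPase, were spread over cells, whereas Cd74 and the class II genes H2-Aa, H2-Ab1 and H2-Eb1 were found in 12 to 24 gated VEGF/LysM cells and 4 to 9 gated WT cells. Tspo, a mitochondrial membrane protein of steroid-making and other cells, had 189 in gated VEGF/LysM cells and 72.7 in gated WT cells, a log2 ratio of 1.38, and the ratio in the other cells was 0.94. Cmss1 (log2 ratio 1.63 gated and 1.63 other) and Mir6236 (1.21 and 1.48) were higher in VEGF/LysM in both kinds of cell; reads of ribosomal RNA can fall on these loci, so their counts are uncertain.

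Cyp26b1, the enzyme that breaks down retinoic acid, was lower in VEGF/LysM in both kinds of cell, with a smaller ratio in gated ones; the difference between the ratios was not tested. It had 265 CPM in the gated VEGF/LysM cells (95% interval 225 to 309), against 492 in the gated WT cells (414 to 579.5), a log2 ratio of -0.89 (-1.23 to -0.56). With the gate and the counts taken on cells thinned to 1000 UMIs the ratio was -0.27, under 1.5-fold. In the other cells it had 91.5 in VEGF/LysM, against 374 in WT, a ratio of -2.03 (-2.14 to -1.92). The same order held in cluster 9, with 595 in gated VEGF/LysM cells against 1516 in gated WT cells, and 385 against 1212 in the cells of that cluster outside the gate. In cluster 5 gated cells had 296 (233 to 371) in VEGF/LysM against 419 (312 to 551) in WT, with overlapping intervals. The cells of cluster 5 outside the gate had 51.8 (31.2 to 80.8) in VEGF/LysM against 676 (594 to 766) in WT. Ephrin B1 (Efnb1), a guidance ligand, was lower in gated VEGF/LysM cells at 149, against 270.1 in gated WT cells, but near equal in the other cells (278 and 292). Tcn2, which carries vitamin B12, and Klf3, a repressor of the Klf family, had log2 ratios of -0.87 (-1.26 to -0.48) and -0.76 (-1.17 to -0.36) in gated cells and -0.39 and -0.06 in other cells. With at least 3 gate UMIs asked for, Efnb1 stood at -0.48 and Klf3 at -0.55 in gated cells, both under 1.5-fold. No ratio between the libraries could be set against the spread between mice.

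**Figure D5:**
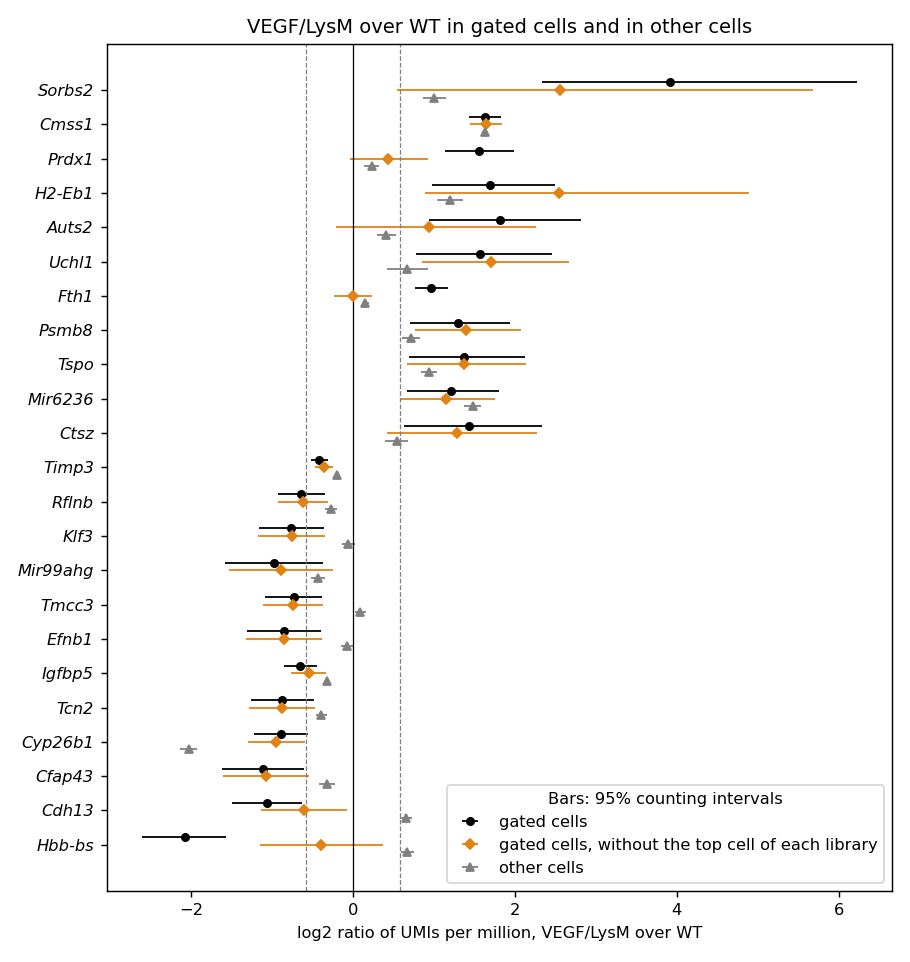
Log2 ratio of CPM in VEGF/LysM over WT (horizontal axis) for 23 of the 24 genes named in this comparison (Ly6d, held by 1 cell in each library, is left out), in gated cells (circles), in gated cells without the cell holding most of the gene in each library (diamonds) and in other cells (triangles), with 95% counting intervals and dashed lines at 1.5-fold. Fth1 and Hbb-bs move toward 0 without 1 cell, Uchl1 stays at 1.70, and Cyp26b1 is lower in other cells (-2.03) than in gated cells (-0.89).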

How the data were processed

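The authors deposited unnormalized UMI counts for 54838 gene rows in each cell; Cell Ranger 7.0.1, Seurat and the mm10 genome are named per the submitters' processing notes, and Cell Ranger 7.0.0 per the file headers; the annotation release and whether introns counted were not stated. Barcodes had been called as cells before deposit (3807 VEGF/LysM and 6276 WT), so free RNA could not be measured. Cells needed 500 UMIs and 300 genes or more, with mitochondrial genes giving at most 15% of UMIs, which left 10313885 UMIs in VEGF/LysM and 8538261 in WT. The members and gene lists were chosen with earlier results of these data known. Counts were summed over gated and other cells of a library, and ratios of CPM were given with exact conditional binomial 95% intervals. A gene was measured when at least 30 UMIs were expected in the gated cells of each library. Named genes were the 20 with the highest lower bound and the 12 with the lowest upper bound of the gated-to-other ratio over both libraries and both sets of other cells, and the 12 highest and 12 lowest between the libraries, at 20 CPM or more, leaving out gate, mitochondrial and unnamed genes; others were list members. Cells were clustered (scanpy 1.11.5, Leiden at resolution 1, 2000 variable genes, 30 components, 15 neighbours) without the gate genes. Scrublet's automatic cutoff marked 4 VEGF/LysM cells and 1 WT cell and had not worked, so the cells with the highest scores, at a rate of 0.8% per 1000 cells, were left out only as an alternative. Ratios, intervals and calls were tested on simulated counts with known folds. These counts were drawn at random for each gene without cells, so genes held mostly by single cells were not covered. Of the gene identifiers, 54723 were found in GENCODE M21, which gave the coordinates. Analyses used Python 3.11.15, numpy 2.4.6, scipy 1.17.1 and pandas 2.3.3.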

Additional observations from a re-analysis of the deposited data

Results flagged for a closer look

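For 11 genes the ratios ran in opposite directions in different cells or libraries, with counting intervals on both sides of 0; the difference between the ratios was not tested. Cdh13 had a log2 ratio of gated to other cells of -1.34 in VEGF/LysM and 0.38 in WT, and a log2 ratio of VEGF/LysM to WT of -1.06 in gated cells and 0.65 in other cells. Hbb-bs had a log2 ratio of gated to other cells of -2.04 in VEGF/LysM and 0.71 in WT, and a log2 ratio of VEGF/LysM to WT of -2.08 in gated cells and 0.67 in other cells. Tmsb4x had a log2 ratio of gated to other cells of -0.18 in VEGF/LysM and 0.16 in WT, and a log2 ratio of VEGF/LysM to WT of -0.18 in gated cells and 0.16 in other cells. For the other genes only the ratio of VEGF/LysM to WT did so, and it was -0.46 in gated cells and 0.70 in other cells for Cd36, -0.51 in gated cells and 0.29 in other cells for Cav1, -0.43 in gated cells and 0.18 in other cells for Cavin1, -0.36 in gated cells and 0.052 in other cells for Cd300lg. It was -0.57 in gated cells and 0.11 in other cells for Itga1, -0.74 in gated cells and 0.089 in other cells for Tmcc3, -0.38 in gated cells and 0.10 in other cells for Arhgap18, 0.71 in gated cells and -0.34 in other cells for Gzmk. For Hbb-bs 73 of 99 gated WT UMIs, and for Cdh13 38 of 92, lay in 1 cell; without the top cell of each library the ratio of VEGF/LysM to WT was -0.40 for Hbb-bs and -0.61 for Cdh13. The ratio of gated to other cells was then below 0 in both libraries, at -2.27 in VEGF/LysM and -1.20 in WT for Hbb-bs, and at -1.61 in VEGF/LysM and -0.35 in WT for Cdh13, whose WT interval includes 0.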

How the results depend on the processing

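No paired analysis was possible because each group has 1 library and no replicate numbers. The genes higher in gated cells and the genes lower in gated cells of both libraries, 56 and 76, became 8 and 14 on cells thinned to 1000 UMIs (140 genes measured, 5 of the 8 and 7 of the 14 shared with the 56 and 76), 13 and 24 at 100 expected UMIs or more, and 784 and 561 without a filter on low counts. The genes higher in VEGF/LysM gated cells and the genes lower in VEGF/LysM gated cells, 94 and 57, became 6 and 7 on thinned cells, 16 and 2 at 100 expected UMIs, and 1972 and 2550 without that filter. On thinned cells 151 genes were measured, 4 of the 6 were among the 94 and 0 of the 7 among the 57. With at least 3 gate UMIs, 29 genes were lower in gated VEGF/LysM cells, 10 of them shared with the 57. Thinning also took the gate anew and left out cells, and the cause of these changes was not tested. The VEGF/LysM minus WT difference in the share of gated cells was -0.19 percentage points at 1000 UMIs and 1.87 without thinning. Cfap43 turned to a log2 ratio of VEGF/LysM to WT of 1.00 on thinned cells. The median of the capillary list in VEGF/LysM turned to 0.58 against other cells with Plvap or Esm1 (over 5 measured genes instead of 9), and to 0.16 when these were weighted to the depth of the gated cells. The named ratios of gated to other cells kept their direction in all 1020 alternative values. Leaving out the top gated cell of each gene, barcodes in both libraries, or cells with markers of other types was chosen after seeing the data; without the top cell, 45 genes were higher and 107 lower in gated cells, and 112 higher and 50 lower in gated VEGF/LysM cells. With 288794 UMIs in gated WT cells, genes under about 30 UMIs there could not be compared.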
